A study of Mus musculus with 20 samples.

Results

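The MCM helicase and replication licensing genes are described here in the livers of mice that carry an IMP2-2 transgene (tg) and of wildtype mice (wt). The set holds 10 genes chosen by name (*Mcm2*, *Mcm3*, *Mcm4*, *Mcm5*, *Mcm6*, *Mcm7*, *Mcm10*, *Cdc6*, *Cdt1* and *Orc1*), and every probe set annotated to them was used, which gave 28 of the 45101 probe sets on the array and 10 of the 18194 genes that have a probe set of their own. IMP2-2, also called p62, is a splice form of the mRNA-binding protein IGF2BP2, and the series describes the transgene as liver-specific. The sources used here do not give its promoter. The 10 tg and 10 wt livers came from untreated mice of 5 weeks on a C57Bl6J/DBA2 background, and total RNA of snap-frozen tissue was hybridised to genome-wide Affymetrix mouse expression arrays, 1 per liver. All values are log2 signals, so a difference of 1 is a doubling.

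Licensing is the loading of the replicative helicase onto DNA before S phase. The origin recognition complex, of which ORC1 is a subunit, marks the site. CDC6 and CDT1 then load the ring of MCM2 to MCM7, which stays inactive until kinases, CDC45 and the GINS complex turn it into the moving helicase. MCM10 acts at that later activation step. Geminin binds CDT1 and blocks repeated loading. Most hepatocytes of an adult liver are quiescent, and genes of this set are known targets of the E2F transcription factors, which act at the entry into S phase.

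The promoters are shown for their matches to the E2F motif. The genes were chosen by name, but genes of this set are known E2F targets, so frequent matches are no independent support. Windows from 250 bases before to 50 bases after the annotated start (RefSeq, GRCm38.p6) were held for 9 of the 10 members. *Mcm4* was not matched. The window was searched on both strands for TTTCCCGC, TTTGGCGC, TTTCGCGC and TTTGCCGC, which are forms of the E2F motif. At least 1 form was found in 7 of 9 genes (*Orc1*, *Cdc6*, *Cdt1*, *Mcm3*, *Mcm5*, *Mcm6* and *Mcm7*). That was 7 of 10 windows, as *Mcm7* had 2, against 2.26% of 32851 promoter windows in the table. The letters CCAAT, in either direction, were found in 7 of 9 genes (8 of 10 windows), against 37.4% of all windows. TTTGAA was found in 1 of 9 genes, *Mcm2*, against 17.9% of all windows. The windows of *Mcm6*, *Mcm5*, *Cdc6* and *Mcm2* are printed 5′ to 3′ along the gene, with E2F matches in capitals. Each of these genes had a probe set called higher in tg livers in the fit of all 20 arrays described below. Only *Mcm6* still passed once near-identical wt arrays, also described below, were averaged. *Mcm2* held no E2F form.
Mcm6, chr1:128359656-128359955: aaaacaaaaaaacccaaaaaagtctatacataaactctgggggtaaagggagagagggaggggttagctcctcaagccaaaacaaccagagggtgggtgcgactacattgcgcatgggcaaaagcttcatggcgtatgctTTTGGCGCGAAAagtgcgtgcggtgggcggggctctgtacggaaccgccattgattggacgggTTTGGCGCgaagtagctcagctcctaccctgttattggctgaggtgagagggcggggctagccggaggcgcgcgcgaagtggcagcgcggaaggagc
Mcm5, chr8:75109259-75109558: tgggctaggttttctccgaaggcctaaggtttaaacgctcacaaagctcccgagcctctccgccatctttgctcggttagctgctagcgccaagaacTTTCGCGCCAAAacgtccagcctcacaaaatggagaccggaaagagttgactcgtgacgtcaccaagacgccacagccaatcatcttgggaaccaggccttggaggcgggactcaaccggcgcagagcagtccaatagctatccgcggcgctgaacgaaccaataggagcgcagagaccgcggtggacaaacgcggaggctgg
Cdc6, chr11:98907901-98908200: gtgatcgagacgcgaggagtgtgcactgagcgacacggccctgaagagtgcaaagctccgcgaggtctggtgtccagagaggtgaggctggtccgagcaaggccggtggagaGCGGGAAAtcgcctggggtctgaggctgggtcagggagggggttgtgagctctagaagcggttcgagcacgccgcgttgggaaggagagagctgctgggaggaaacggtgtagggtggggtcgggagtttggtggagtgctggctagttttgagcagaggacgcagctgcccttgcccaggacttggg
Mcm2, chr6:88898731-88899030: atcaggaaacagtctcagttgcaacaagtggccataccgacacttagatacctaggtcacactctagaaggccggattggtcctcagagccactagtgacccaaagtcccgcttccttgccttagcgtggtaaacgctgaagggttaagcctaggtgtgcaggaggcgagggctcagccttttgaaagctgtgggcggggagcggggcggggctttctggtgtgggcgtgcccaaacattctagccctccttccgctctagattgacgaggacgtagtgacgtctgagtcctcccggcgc
The *Mcm6* window (minus strand) held 3 matches, of which 2 overlap, and they began 110, 106 and 47 bases before the start. Those of *Mcm5* (plus strand) began 153 and 149 bases before it and overlap. *Cdc6* (plus strand) held 1 match, 138 bases before the start. These are matches of letters and not measured binding sites. The *Mcm2* window (minus strand) held none of the 4 forms.

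Some arrays need naming before the results. The tg arrays tg_1420_4, tg_1423_2-8_1 and tg_1423_2-8_4 lay at 53, 70.4 and 69.3 on the main axis of variation over all probe sets, while the other tg arrays ran from -20.2 to 8.30 and wt arrays from -26.8 to 7.65. Array wt_1420_6 nearly repeated wt_1407_2, and likewise wt_1420_7 nearly repeated wt_1407_5 (SD of their log2 difference 0.168 to 0.172, against 0.228 to 0.401 for the other wt pairs), so each pair counts once in the wt mean and SD (n = 8), and n is 10 for tg. The lowest, median and highest values are over all 10 arrays of a genotype. Fold changes, their errors and p-values are from the fit of all 20 arrays, which counts the near-identical wt arrays singly, so they can differ from the difference of the printed means. Across genotypes, tg_1386_9 and wt_1386_4 were closer still (0.155, the smallest of all 190 pairs). Both were kept under their labels, and a likeness of 2 livers and a mix-up of 2 samples cannot be told apart here. The tissue was that of liver, with 9 measured hepatocyte markers at mean levels from 7.98 to 14.40. No probe set is annotated to *Igf2bp2* alone, so the transgene was not checked. Each sample name carries 1 of 6 numbers, which both genotypes share (as in tg_1371_2 and wt_1371_4). What the number marks is not stated. A fit with it as a block is quoted where it changed the call of a member or the count of a list.

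Several MCM genes passed as higher in tg livers in the fit of all arrays, and none of the members passed as lower. Of the 28 probe sets, 6 passed an adjusted p under 0.05 as higher (21.4%), where 1.88% of all probe sets on the array did (850 of 45101). None passed as lower, against 0.663% of all (299). The members were chosen with earlier results of these data known, so the shares in this paragraph are descriptions and not support. The 6 belong to *Mcm6* (2 sets), *Mcm5*, *Mcm2*, *Mcm4* and *Cdc6*. At an unadjusted p under 0.05, 16 were higher and 0 lower, against 9.61% and 10.8% of all probe sets. With the number block, 14 of 28 passed as higher, in 8 genes, against 3.62% of all probe sets, and these include the 6. With each near-identical wt pair averaged, 2 passed, both of *Mcm6*, against 0.543% of all. The median log2 fold change was 0.37 over the 28 sets, against -0.03 over all sets, and 21 of 28 were positive (75%), against 40% of all. Taking for each gene its main probe set, the one with the highest mean, the median was 0.56 over 10 genes, against -0.02 over all genes, and 4 of 10 passed as higher, against 2.98% of 18194 genes. Without tg_1386_9 and wt_1386_4, 9 of 28 passed, against 2.68% of all probe sets.

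**Figure D1:**
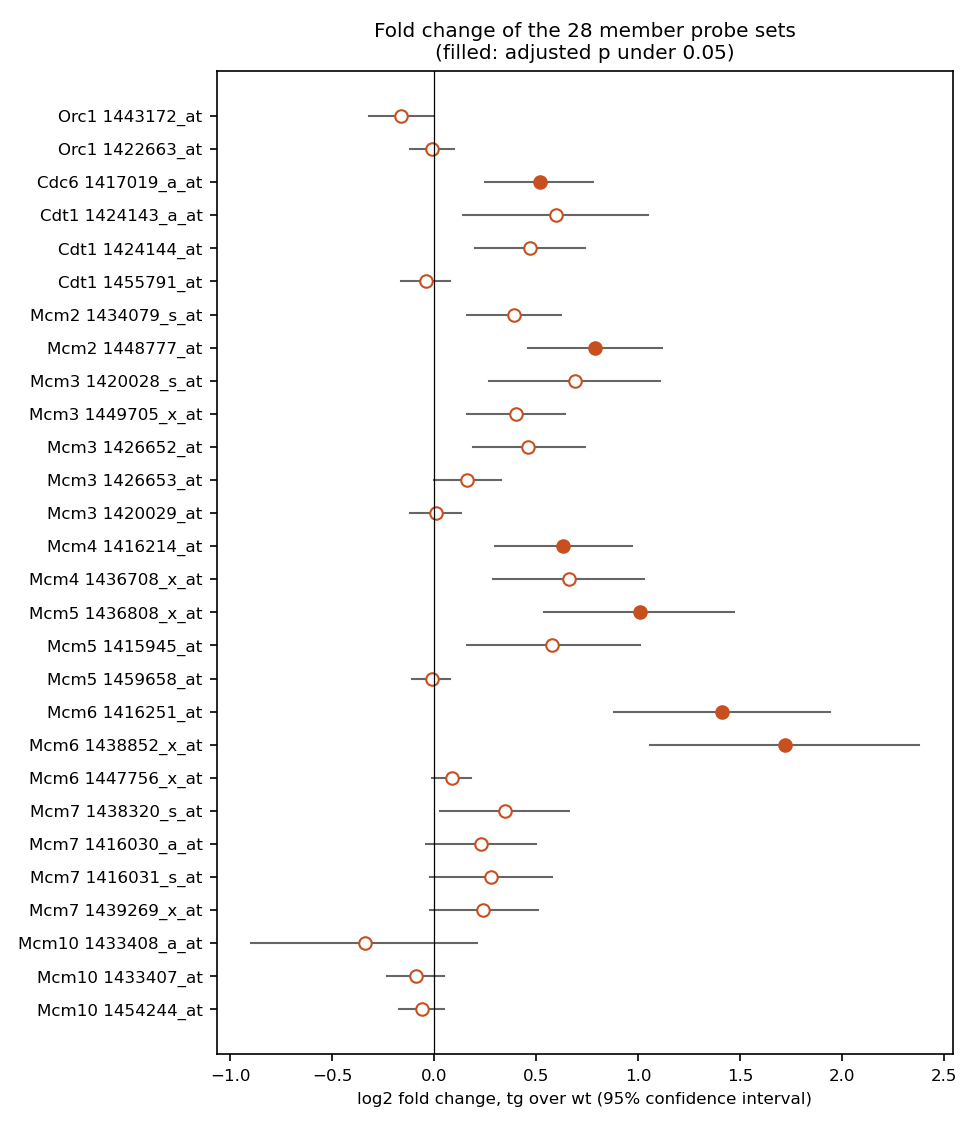
Log2 fold change, tg over wt, of each of the 28 probe sets of the 10 members (horizontal axis, log2 units), with 95% confidence intervals from limma. Filled points passed an adjusted p under 0.05: the 2 *Mcm6* sets lie furthest right at 1.41 and 1.72, and no set below 0 is filled.

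*Mcm6*, a subunit of the helicase ring, showed the largest fold change among the members in both of its well-measured probe sets. The set 1416251_at read 5.99 at the lowest, 6.60 at the median and 7.94 at the highest in tg livers, against 4.69, 5.41 and 6.14 in wt livers. In 7 of 10 tg livers it was above every wt liver, so the groups overlapped only at their edges, and all 10 lay above the wt median. Its mean was 6.79 ± 0.69 in tg and 5.46 ± 0.56 in wt livers (SD). Over all 20 arrays the log2 fold change was 1.41 (SE 0.256, 95% interval 0.88 to 1.94), or 2.66-fold, with an adjusted p of 0.00675 (limma). With the near-identical wt arrays averaged it was 1.33 (adjusted p = 0.0355). The second set, 1438852_x_at, read 5.12, 6.13 and 7.44 in tg livers, against 3.62, 4.57 and 5.57 in wt livers. It was 3.3-fold higher (1.72, SE 0.318, adjusted p = 0.00788), and again 7 tg livers exceeded every wt liver. The remaining *Mcm6* set, 1447756_x_at, had a mean of 2.91 and a log2 fold change of 0.09 (adjusted p = 0.291).

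*Mcm5*, whose product closes the ring next to MCM2, came next. The set 1436808_x_at read 6.09, 7.56 and 8.32 in tg livers, against 6.15, 6.43 and 6.80 in wt livers. It was above every wt liver in 8 tg livers, yet the lowest array of all was also a tg liver. The mean was 7.46 ± 0.74 in tg and 6.45 ± 0.22 in wt livers, a 2.01-fold difference (log2 1.01, SE 0.223, interval 0.54 to 1.47, adjusted p = 0.0221), and the averaged wt pairs moved the adjusted p to 0.0651. The spread between tg livers was wider than between wt livers for this gene. A second set, 1415945_at, gave 0.58 (SE 0.205, adjusted p = 0.114), and the third, at a mean of 2.91, gave -0.01 (adjusted p = 0.878).

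*Mcm2*, the subunit at the gate where DNA enters the ring, was called in one of its sets. 1448777_at read 4.81, 5.66 and 6.15 in tg livers, against 4.28, 4.80 and 5.21 in wt livers, with 8 tg livers above every wt liver. The mean was 5.59 ± 0.47 in tg and 4.86 ± 0.26 in wt livers. Over all 20 arrays it was 1.73-fold higher (log2 0.79, SE 0.159, interval 0.46 to 1.12, adjusted p = 0.014). With the wt pairs averaged the log2 value was 0.72 (adjusted p = 0.0556). The main set, 1434079_s_at, differed less. It read 6.68, 7.25 and 7.66 in tg livers, against 6.57, 6.77 and 7.16 in wt livers, and tg was higher by 0.39 log2 units (SE 0.113, adjusted p = 0.0636; 0.0359 with the number block).

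*Mcm4*, part of the catalytic core of the ring with MCM6 and MCM7, was higher at 1416214_at. Tg livers read 6.07, 6.89 and 7.58, against 5.97, 6.25 and 6.44 in wt livers, and 7 tg livers lay above every wt liver. The mean was 6.86 ± 0.53 in tg and 6.23 ± 0.15 in wt livers, 1.55-fold higher (log2 0.63, SE 0.160, interval 0.30 to 0.97, adjusted p = 0.0397; 0.0941 with the wt pairs averaged). The other set, 1436708_x_at, was of the same size at 0.66 (SE 0.180) and fell just outside the threshold at 0.0509 (0.0178 with the number block).

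*Mcm3*, a further ring subunit, did not pass in the fit by genotype. Its main set, 1420028_s_at, read 4.67, 6.33 and 6.59 in tg livers, against 5.03, 5.22 and 5.60 in wt livers. The tg livers divided here, with 7 above every wt liver and 1 below all of them. The means were 5.98 ± 0.66 in tg and 5.32 ± 0.21 in wt livers (log2 fold change 0.69, SE 0.201, adjusted p = 0.0664; 0.0307 with the number block). Of its other 4 sets, 1449705_x_at (0.40) and 1426652_at (0.46) had adjusted p-values of 0.0632 and 0.0621, which the block moved to 0.0412 and 0.0349. 1426653_at and 1420029_at gave 0.16 and 0.01 (adjusted p = 0.234 and 0.969).

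*Mcm7* had the smallest fold change among the main probe sets of the ring subunits. 1438320_s_at read 7.83, 8.30 and 9.07 in tg livers, against 7.47, 8.10 and 8.40 in wt livers, and only 4 tg livers exceeded every wt liver. The means were 8.38 ± 0.41 in tg and 8.02 ± 0.35 in wt livers, 1.27-fold (log2 0.35, SE 0.151, interval 0.03 to 0.66, adjusted p = 0.199; 0.0331 with the number block). The other 3 sets gave 0.23 to 0.28 and adjusted p-values of 0.271 to 0.327. The interval of *Mcm6* 1416251_at, 0.88 to 1.94, lay above that of *Mcm7*, but the difference between the genes was not tested. *Mcm7* (chr5:138164583-138172111, GRCm38.p6) also hosts *Mir25*, *Mir93* and *Mir106b*, which these probe sets do not name.

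**Figure D2:**
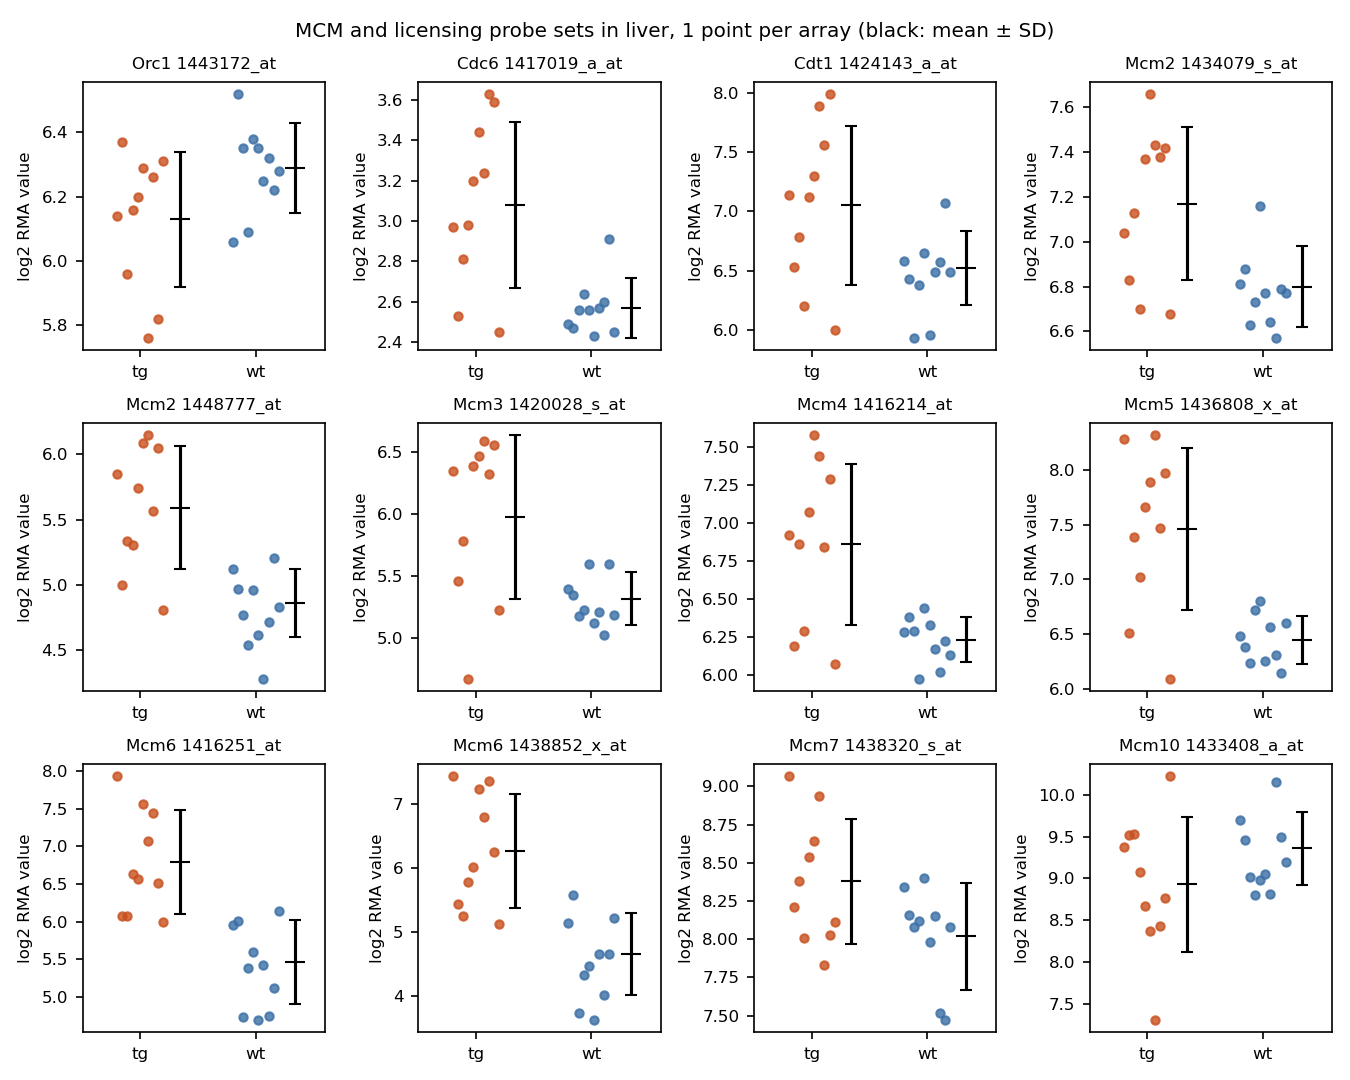
Log2 RMA value of each array (points) for the main probe set of each member and the further called sets of *Mcm2* and *Mcm6*, tg left of wt, with mean ± SD beside them (n = 10 tg; n = 8 wt, near-identical pairs counted once). For *Mcm6* 1416251_at, 7 of 10 tg livers lie above all wt livers, while *Orc1* and *Mcm10* overlap between genotypes.

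Of the loaders, *Cdc6* passed the threshold as higher and *Cdt1* did not, but a difference between these genes was not tested. *Cdc6* 1417019_a_at, its only probe set, read 2.45, 3.09 and 3.63 in tg livers, against 2.43, 2.56 and 2.91 in wt livers, with 7 tg livers above every wt liver. The mean was 3.08 ± 0.41 in tg and 2.57 ± 0.15 in wt livers (log2 fold change 0.52, SE 0.128, adjusted p = 0.0362; 0.0896 with the wt pairs averaged). Its mean of 2.83 lay below the median of all probe sets, 4.53, so the size of the 1.43-fold difference is approximate. *Cdt1* 1424143_a_at read 6.0, 7.13 and 7.99 in tg livers, against 5.93, 6.49 and 7.07 in wt livers. Its tg livers spanned a wide range and 6 exceeded every wt liver. The log2 fold change was 0.60 (SE 0.218, adjusted p = 0.128; 0.0494 with the number block). The second *Cdt1* set, 1424144_at, gave 0.47 (SE 0.130, adjusted p = 0.0541; 0.0312 with the block) with 8 tg livers above every wt liver, and 1455791_at gave -0.04 (adjusted p = 0.739).

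*Orc1* and *Mcm10*, which act before and after the loading of the ring, were not called in either direction. *Orc1* 1443172_at read 5.76, 6.18 and 6.37 in tg livers, against 6.06, 6.30 and 6.52 in wt livers, and the groups overlapped over most of their range. The log2 fold change was -0.16 (SE 0.078, interval -0.32 to 0.00, adjusted p = 0.257), and the other set gave -0.01 (adjusted p = 0.929). *Mcm10* 1433408_a_at read 7.30, 8.92 and 10.23 in tg livers, against 8.80, 9.12 and 10.16 in wt livers. Both the lowest and the highest array were tg livers. Its log2 fold change was -0.34 (SE 0.267, interval -0.90 to 0.21, adjusted p = 0.492), and the interval includes no change and moderate changes either way. The other *Mcm10* sets, at means of 4.24 and 3.13, gave -0.09 and -0.06 (adjusted p = 0.474 and 0.544).

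The size of the difference varied with the number in the sample names. For *Mcm6* 1416251_at, the tg minus wt difference was 2.05 for tg_1423_2-8 against wt_1423_2-8 arrays, 1.99 for tg_1371 against wt_1371, 1.84 for tg_1420 against wt_1420 and 1.29 for tg_1407 against wt_1407. It was only 0.07 for tg_1386 against wt_1386 and -0.14 for tg_14231 against wt_14231, each of which holds 1 array of each genotype. *Mcm5* behaved likewise, with 1.80 for tg_1371 against wt_1371, 0.12 for tg_1386 against wt_1386 and -0.51 for tg_14231 against wt_14231. At their main probe sets, *Mcm3*, *Mcm7* and *Cdc6* were higher in tg livers at 6 of 6 numbers, with smallest differences of 0.02, 0.04 and 0.01. For *Cdc6* the smallest was in effect a tie, as tg_14231_6 and wt_14231_2 both read 2.45. Other sets did not all follow. *Mcm3* 1449705_x_at read 5.08 in tg_14231_6 and 5.28 in wt_14231_2, and *Mcm7* 1439269_x_at read 5.96 and 6.25. *Mcm4* ranged from -0.18 (tg_1386 against wt_1386) to 1.05 (tg_1420 against wt_1420). *Mcm10* ran from -1.23 (tg_1423_2-8 against wt_1423_2-8) to 1.03 (tg_14231 against wt_14231). The small differences between tg_1386_9 and wt_1386_4 come from the closest pair of arrays in the series.

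**Figure D3:**
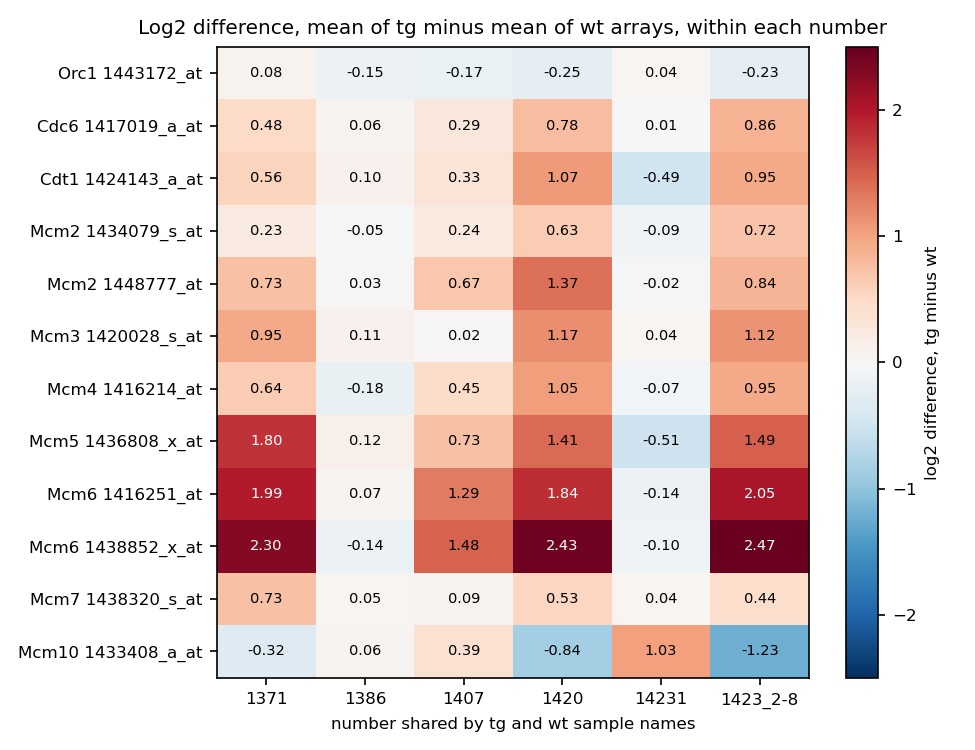
Log2 difference, mean of tg minus mean of wt arrays, for each probe set (rows) within each of the 6 numbers shared by the sample names (columns), with the value printed in each cell and red for higher in tg. For *Mcm6* 1416251_at the difference reaches 2.05 at the tg_1423_2-8 and wt_1423_2-8 column, while the columns of tg_1386 and tg_14231 lie at 0.07 and -0.14.

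The ring subunits varied together between livers. With genotype means removed, the 15 pairs among the main sets of *Mcm2* to *Mcm7* correlated at r of 0.35 to 0.90 (median 0.59, 20 arrays). The r values are a description over livers normalised together that also differ in cell content. They count the near-identical wt arrays singly and carry no test. *Cdt1* correlated with the ring subunits at r of 0.11 to 0.86 (median 0.73) and *Cdc6* at -0.15 to 0.70 (median 0.65). For both the lowest r was with *Mcm7*. The main set of *Mcm10* ran the other way, with r of -0.67 to -0.36, and that of *Orc1* had r of -0.53 to -0.04. Other sets of these genes had means of 4.24 and 3.13 for *Mcm10* and 2.90 for *Orc1*, below the median of all probe sets, 4.53. They followed the main set weakly or not at all, with r of 0.36 and 0.41 for *Mcm10* and -0.05 for *Orc1*. The correlations between genes thus describe 1 probe set per gene. For a ranking of the arrays the genotype difference was left in, and the standardised main sets of *Mcm2* to *Mcm7* were averaged. The 7 highest arrays were all tg, led by tg_1420_4 and tg_1420_14 (both 1.59) and tg_1371_2 (1.36). The other 3 tg arrays, tg_1386_9 (-0.33), tg_1407_9 (-0.46) and tg_14231_6 (-0.67), lay among the wt arrays, which ran from -1.21 to 0.01. Of the tg arrays that are the only one of their number, tg_1386_9 and tg_14231_6 are thus among the low ones and tg_1371_2 among the high ones.

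Likeness to the ring subunits was taken as r with their mean standardised level, this time with genotype means removed. The gene most like them, out of 11766 genes, was *Snrnp40*, a component of the spliceosome (r = 0.89, log2 fold change 0.22, adjusted p = 0.154). It was followed by *Tmsb4x*, which binds actin monomers (0.87; 0.37, adjusted p = 0.0304), and by *Slfn9* of the Schlafen family (0.86; 0.84, adjusted p = 0.00741). *Smc2*, a core subunit of condensin, had an r of 0.85 (0.75, adjusted p = 0.0197). *Lcp2*, an adaptor of leukocyte signalling, and *Itgal*, a leukocyte integrin chain, each had an r of 0.85 (0.35 and 0.37, adjusted p = 0.107 and 0.0664). These correlations are over the 20 arrays, with the near-identical wt arrays counted singly, and carry no test.

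The other genes of the replication machinery were taken as lists, also chosen with earlier results of these data known. The differences between lists were not tested. Over all 18194 genes, 2.98% passed as higher and 0.967% as lower, with a median log2 fold change of -0.02 and 42.8% positive. With the number block 5.39% passed as higher, and with the wt pairs averaged 0.896%. Of 23 measured further licensing and origin firing factors, 2 were higher and 0 lower, with a median log2 fold change of 0.12. They are *Dbf4*, the activator of the kinase that fires origins (0.65, SE 0.163, adjusted p = 0.0374), and *Gins3*, a subunit of GINS (0.41, SE 0.103, adjusted p = 0.0401). Neither passed with the wt pairs averaged (0.0834 and 0.0966). *Cdc45* gave -0.04 (adjusted p = 0.755), and *Gmnn*, which encodes geminin, gave 0.41 (adjusted p = 0.189). Of 29 genes of the replication fork and nucleotide supply, 4 were higher and 0 lower (median 0.23). These were the primase subunits *Prim1* (0.51, SE 0.129, adjusted p = 0.0398) and *Prim2* (0.41, SE 0.084, adjusted p = 0.0163), *Rfc1*, the large subunit of the clamp loader (0.23, SE 0.052, adjusted p = 0.0238), and *Rrm1*, the large subunit of ribonucleotide reductase (0.54, SE 0.130, adjusted p = 0.0335). With the wt pairs averaged *Prim2* passed (0.0465), and *Prim1* (0.0819), *Rfc1* (0.0717) and *Rrm1* (0.0896) did not. *Pcna*, the sliding clamp, gave 0.34 (adjusted p = 0.0816; 0.045 with the number block).

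Few genes of cell cycle control passed, and no mitosis gene did. Of 30 genes of G1/S control, 2 were higher and 0 lower (median 0.10), against 2.98% and 0.967% of all genes. *Cdkn1a*, which encodes the CDK inhibitor p21, averaged 7.64 ± 0.56 in tg and 6.53 ± 0.55 in wt livers. Over all 20 arrays its log2 fold change was 1.05 (SE 0.220, adjusted p = 0.0169; 0.0466 with the wt pairs averaged). *Cdc25a*, a phosphatase that activates CDK2, gave 0.59 (SE 0.157, adjusted p = 0.0476; 0.112 with the wt pairs averaged). The inhibitor and the activator were thus both higher in the fit of all arrays. *E2f1* (0.12, adjusted p = 0.296), *Ccnd1* (0.52, 0.212) and *Ccne1* (-0.11, 0.422) did not pass. Of 19 mitosis genes, 0 passed in either direction by limma, although 16 were higher at an unadjusted p under 0.05 (13% of all genes were) and 6 passed with the number block. Their median was 0.54, against 0.56 for the main sets of the members, and *Mki67*, a proliferation marker, gave 0.78 (SE 0.250, adjusted p = 0.0871; 0.0482 with the block). With the block, 3 licensing, 9 fork and 4 G1/S genes were higher.

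Markers of macrophages moved in the same direction as the ring. Of 10 macrophage markers, 7 were higher and 0 lower, 10 had a positive fold change, and the median was 0.54. Over all genes, 2.98% were higher and 42.8% positive, with a median of -0.02. With the number block 9 of the markers were higher (5.39% of all genes), and with the wt pairs averaged 5 (0.896%). *Cd68* gave 0.68 (adjusted p = 0.0144), *C1qa* 0.63 (0.012) and *Clec4f*, a Kupffer cell lectin, 0.60 (0.00924). The summed level of the 10 markers was 75.71 to 83.1 in tg livers, against 72.22 to 78.33 in wt livers. Their part in the difference of the MCM genes was not tested. In whole tissue, fewer or more cells of a type and less or more RNA per cell cannot be told apart. Of 8 lymphocyte markers 0 passed (summed level 34.19 to 36.55 in tg, against 35.08 to 36.27 in wt livers), of 8 erythroid markers 0 (42.57 to 44.93 in tg, against 42.89 to 44.93 in wt livers), and of 8 neutrophil markers 0 (36.19 to 48.56 in tg, against 36.03 to 43.48 in wt livers). With the number block, the lymphocyte markers *Cd8a* (-0.19, adjusted p = 0.0452) and *Ms4a1* (-0.24, 0.0286) passed as lower, against 1.88% of all genes, and the erythroid list's *Tfrc*, the transferrin receptor, passed as higher (0.79, 0.0111). Of 10 endothelial markers 1 was higher, *Lyve1*, and of 10 stellate cell markers 0. Of 7 cholangiocyte markers 1 was higher, *Pkhd1* (adjusted p = 0.04; 0.0665 with the wt pairs averaged), and of 9 hepatocyte markers 0. The 3′ minus 5′ signal of control transcripts, a measure of RNA integrity, was 0.46 to 0.82 in tg and 0.41 to 0.95 in wt livers.

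**Figure D4:**
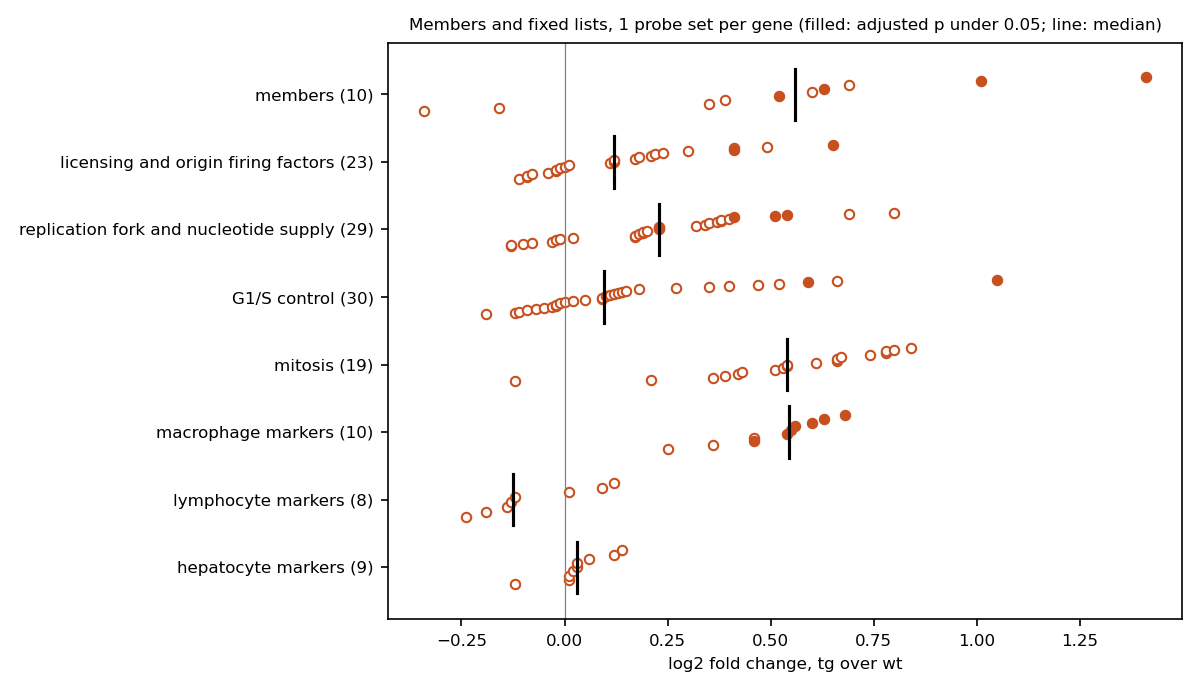
Log2 fold change, tg over wt, of 1 probe set per gene for the 10 members and for fixed lists of genes (number measured in brackets), with a line at each median. Filled points passed an adjusted p under 0.05. The medians of the members (0.56), of mitosis genes (0.54) and of macrophage markers (0.54) lie above those of the other lists drawn.

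The calls depended on which livers were kept. Without the 3 tg arrays that stood apart, 0 of the 28 probe sets passed, while *Mcm6* 1416251_at still showed 1.32 (adjusted p = 0.0514) and *Mcm5* 0.81 (0.157). Without the tg_1423_2-8 and wt_1423_2-8 arrays, 0 passed as well, with 1.25 (0.104) for *Mcm6* and 0.89 (0.168) for *Mcm5*. Far fewer probe sets of the whole array passed in these fits, 0.35% and 0.153% as higher. Both *Mcm6* sets, *Mcm5* 1436808_x_at and *Mcm2* 1448777_at passed in each of 20 fits that left out 1 array. *Mcm4* passed in 5 of these, without tg_1386_9, tg_1407_9, tg_14231_6, wt_1386_4 or wt_1420_1, and *Cdc6* in 6, without tg_1371_2, tg_1386_9, tg_1407_3, tg_1407_9, tg_14231_6 or wt_1423_2-8_9. Leaving out tg_1386_9, tg_1407_9 or tg_14231_6 gave 11, 11 and 14 called probe sets, where 3.73%, 1.8% and 3.3% of all probe sets passed as higher. Each of the 20 fits left out 1 array only, so they cannot show the effect of the near-identical wt pairs. With those pairs averaged both *Mcm6* sets passed. *Mcm5* 1436808_x_at (adjusted p = 0.0651), *Mcm2* 1448777_at (0.0556), *Mcm4* 1416214_at (0.0941) and *Cdc6* (0.0896) then did not.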

How the data were processed

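The authors deposited log2 values, normalized by RMA, for 45101 probe sets on 20 arrays, and no scanner files were used here. Gene names came from the platform annotation (34958 probe sets with 1 symbol, 932 with several, 9211 with none). Tg was compared with wt by genotype alone with limma 3.58.1 in R 4.3.3, with Benjamini-Hochberg adjustment over all probe sets and a threshold of 0.05. The fit was first run on simulated independent arrays with the wt spread in both genotypes. That simulation lacks the near-identical wt arrays, the tg arrays that stand apart and the wider tg spread of some members. It therefore cannot show how these affect the calls. The p-values measure the spread between arrays. No filter on low values was used. Deviations of arrays that share a number in their sample names correlated at 0.184 to 0.404 in 6 of 6 numbers. In 5 of 6 the correlation was highest with the same number, and 1371 was the exception. The number was therefore treated as a pairing in the block fits, which rests on the data and the names alone. The main fit has no such term. Block fits count the near-identical wt arrays, of numbers 1407 and 1420, singly. All member probe sets are described, though not each by its identifier. Of the replication and cell cycle lists, called genes (at most 10 per direction, by fold change) and 8 fixed genes are named. The 6 genes most like *Mcm2* to *Mcm7* are named as well. Of the called macrophage markers only some are named. The members and lists were chosen with earlier results of these data known. The number of arrays limits the precision. The alternatives were the block, a random block (consensus correlation 0.082), quantile normalization run again, median-centred arrays, a filter at the median, trend and robust empirical Bayes, weighted arrays, *Xist* as a covariate, for list genes the probe set with the highest SD, averaged wt pairs, and arrays left out.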

Additional observations from a re-analysis of the deposited data

Results flagged for a closer look

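In 4 of 56 groups of arrays, 1 per genotype and member probe set, the highest or lowest value lay further from its neighbour than Dixon's 95% limit allows. Chance flags about 1 in 20 such groups. The wt groups were taken as 8 profiles, with each near-identical pair averaged, and over the 10 single wt arrays the nearest value can lie closer. For *Cdc6* 1417019_a_at, wt_1423_2-8_9 read 2.91 with the next profile at 2.60 (gap over range 0.658) and the next single array at 2.64. The same array was highest for *Cdt1* 1455791_at, at 2.89 with the next profile at 2.62 (0.645) and the next single array, wt_1407_2, at 2.70. For *Mcm3* 1449705_x_at, wt_1420_1 read 5.69 with the next profile at 5.42 (0.53) and the next single array at 5.46. For *Mcm5* 1459658_at, wt_1423_2-8_3 was lowest at 2.77 with the next profile at 2.88 (0.543), but wt_1407_2 alone read 2.79, so this gap exists only with the pair averaged. No tg array was flagged.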

How the results depend on the processing

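The count of member probe sets higher in tg livers was 6 of 28 (1.88% of all probe sets). It became 14 with the replicate block by number (3.62% of all) and 12 with the number as a random block (2.77%). When only probe sets above the median mean were tested, 11 of 19 passed (5.12% of all those tested), and *Cdc6* was then not tested. The count was 2 with the near-identical wt arrays averaged (0.543%). It was 0 without the tg_1423_2-8 and wt_1423_2-8 arrays (0.153%) or without the 3 tg arrays that stand apart (0.35%). The last alternative and the averaging together with leaving out tg_1386_9 and wt_1386_4 were chosen after seeing the data. Leaving out 1 array gave 4 to 14, where 0.867% to 3.73% of all probe sets passed as higher. The pathway genes are those of the 4 lists with 23, 29, 30 and 19 measured genes. Their count higher in tg was 8 (2.98% of all genes), and it became 22 with the replicate block (5.39%) and 2 with averaging (0.896%). For the other fits the shares are of all probe sets. The count was 13 with the random block (2.77%) and 17 without tg_1386_9 and wt_1386_4 (2.68%). With averaging and without tg_1386_9 and wt_1386_4 it was 3 (1.03%). It was 0 without the tg_1423_2-8 and wt_1423_2-8 arrays (0.153%) or without the 3 tg arrays (0.35%). Leaving out 1 array gave 3 to 23 pathway genes, with 23 without tg_1386_9 (3.73% of all probe sets) and 17 without tg_14231_6 (3.3%). It gave 6 to 10 without tg_1371_2, tg_1407_9, tg_1420_12, wt_1371_4 or wt_1420_1, and 3 to 5 without any other. Quantile normalization run again, median-centred arrays, trend and robust empirical Bayes, weighted arrays and *Xist* as a covariate gave 6 to 7 member probe sets and 6 to 9 pathway genes. In these fits 1.33% to 2.15% of all probe sets passed as higher. Counts of lower member probe sets and pathway genes were 0 in all fits. The cause of these shifts was not tested. Some of these fits also hold fewer arrays. No named member changed sign, except *Orc1* 1422663_at, *Mcm3* 1420029_at and *Mcm5* 1459658_at, all within 0.02 of 0 in the fit by genotype. Probe sets with means near or below 3 limit what can be said of *Cdc6* and of the weakest *Orc1*, *Cdt1*, *Mcm3*, *Mcm5*, *Mcm6* and *Mcm10* sets.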
